A study of Mus musculus with 6 samples.

Results

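CDK5, the activators that switch it on and the proteins named for binding those activators were followed in vascular endothelial cells (VECs) sorted from the mouse retina. The rule took every gene of the deposited table with the symbol Cdk5, Cdk5r1, Cdk5r2, Cdk5rap1, Cdk5rap2 or Cdk5rap3. It found 6 genes of the 55487 listed, each with 86 or more reads in any library. The group was selected on the normalized counts of these same libraries, control against knockout. RNA was sequenced from P7.5 retinas of mice on a C57BL/6 J background. The control group was 3 samples of tdTomato FL/+;Pdgf-icreER, and the mutant group, called Bmal1;CKO, was 3 samples of Bmal1 FL/FL;tdTomato FL/+;Pdgf-icreER. Tamoxifen was given daily from P0.5 to P2.5 in both genotypes, and both carried the Cre transgene and the tdTomato reporter. The genotypes as given therefore differ in the floxed Bmal1 alleles. The cells were gated as positive for tdTomato and for the GFP that the Pdgf-icreER transgene also expresses. Whether a library came from pooled retinas is not given in the sources used here, and fewer cells of a type cannot be told apart from less RNA per cell in such bulk samples.

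CDK5 is a cyclin-dependent kinase by sequence, but it is switched on by the activator proteins p35 (Cdk5r1) and p39 (Cdk5r2) and not by a classical cyclin. It is best known from neurons, where it phosphorylates cytoskeletal and synaptic proteins and steers migration and axon growth, and it has also been linked to the migration of endothelial cells. The CDK5RAP proteins were named for binding p35, and each has a role of its own. CDK5RAP1 modifies mitochondrial tRNAs, CDK5RAP2 anchors gamma-tubulin ring complexes at the centrosome and is a microcephaly protein, and CDK5RAP3 is an adaptor of the ligase that attaches the ubiquitin-like protein UFM1.

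Values are normalized counts, the read count of a gene divided by the size factor of its library. The libraries held 71145068 to 104017800 reads on genes, and they are numbered as in the table, where columns 1 to 3 are control and columns 4 to 6 are Bmal1;CKO. Bmal1, listed as Arntl, had 1700.4, 3489 and 2928 normalized counts in the control libraries and 1779, 2747 and 2415 in the Bmal1;CKO libraries, so the groups overlapped. The table gives 1 value per gene, which cannot separate the floxed exon from the rest of the transcript, and the knockout was therefore not checked by it. The paper reports significantly fewer Bmal1 copies by droplet digital PCR in sorted endothelial cells of the mutant genotype. Control library 1 stood apart, since 14.4% of the 20459 genes tested had less than 0.25 of the next lowest library there, against 0.156% to 2.52% in the other libraries. All 14 endothelial markers were tested and had reads in every library, with a summed level of 189329 to 375915 normalized counts in control and 115841 to 240719 in Bmal1;CKO. The 9 markers of microglia summed to 1386183 to 4103347 in control and 2013410 to 3985845 in Bmal1;CKO, more than the endothelial list in each library. The 11 rod markers summed to 743555 to 860470 and 552698 to 883526, so the sorted cells carried transcripts of other retinal cells.

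Of the 6 genes, Cdk5rap1 differed most between the genotypes, Cdk5r1 was lower in Bmal1;CKO by a smaller margin, and Cdk5, Cdk5r2, Cdk5rap2 and Cdk5rap3 overlapped between them. By limma-trend, a linear model fitted to log2(normalized count + 1) over all genes tested, 0 of the 6 reached an FDR of 0.05, and 0 of the 20459 genes (0%) did, with 1007 (4.92%) at an unadjusted p under 0.05, 3.17% higher and 1.75% lower in Bmal1;CKO. Of the 6, Cdk5rap1 was the 1 gene at an unadjusted p under 0.05. edgeR on the recovered reads also called 0 genes, with 777 (3.8%) at an unadjusted p under 0.05. DESeq2 called 67 of 20247 genes without shrinkage (0.331%) and 34 with a prior on the fold changes (0.168%). The adjusted p of the 6 genes lay between 0.883 and 0.929 in limma-trend. The groups did not overlap in 2 of the 6 genes, 1 higher and 1 lower in Bmal1;CKO, against 11.2% of all genes tested (6.62% higher and 4.54% lower), and nothing is read from that count, as the genes were chosen with these values known. The fold changes below are a description for the same reason. Of the 6 values, 3 were above 0, against 56.6% of all genes. Their median by limma-trend was -0.22 on the log2 scale, beside 0.11 over all genes tested by the same fit. Over all genes tested, edgeR gave a median of -0.03, which is not on the same footing as the -0.22.

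**Figure D1:**
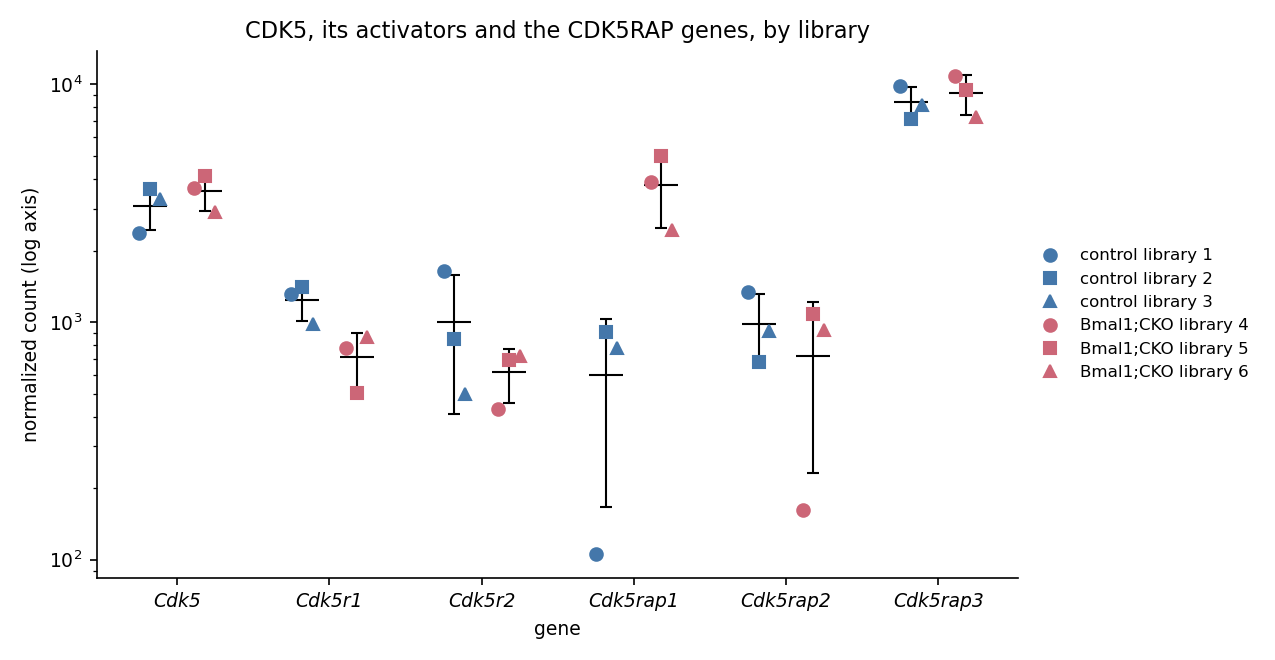
Normalized counts (log axis) of the 6 genes in each of the 3 control (blue) and 3 Bmal1;CKO (red) libraries, with the mean (wide bar) and SD. Cdk5rap1 lies between 106 and 907 in control and between 2443 and 5000.1 in Bmal1;CKO, and the low points of Cdk5rap1 and Cdk5rap2 are control library 1 and Bmal1;CKO library 4.

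The stretches before the start sites are shown for 3 of the genes because BMAL1, with its partner CLOCK, binds the E-box, and because these windows differ in what they hold. RefSeq promoter windows of GRCm38.p6 matched 4 of the 6 genes, Cdk5r2, Cdk5rap1, Cdk5rap2 and Cdk5rap3, the last with a pair of start sites. In the 250 bases before each start, both strands were searched for the E-box CACGTG, its variant CACGTT, the D-box TTATGTAA, the ROR core AGGTCA and the CCAAT box CCAAT. None of the 4 genes held an E-box, its variant, a D-box or an ROR core in these windows. Of 32817 windows of the same length, 6.02% held the E-box, 3.85% the variant, 0.817% the D-box and 14.0% the ROR core. CCAAT, found in 33.8% of the windows, occurred 2 times before Cdk5r2 and 3 times before the outer start of Cdk5rap3, and 0 times before Cdk5rap1 and Cdk5rap2. Below, the bases of each window that lie outside the exons of the gene are printed in the direction of transcription, with CCAAT or its reverse complement in capitals.
Cdk5rap1, chr2:154372855-154372961, minus strand, no motif: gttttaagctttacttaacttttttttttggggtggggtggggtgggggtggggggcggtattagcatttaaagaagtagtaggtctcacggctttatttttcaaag
Cdk5r2, chr1:74854779-74854933, plus strand, with 2 CCAAT boxes: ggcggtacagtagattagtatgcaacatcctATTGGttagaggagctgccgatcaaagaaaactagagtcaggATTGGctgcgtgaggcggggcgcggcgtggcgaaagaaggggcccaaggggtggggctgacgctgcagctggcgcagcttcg
Cdk5rap3, chr11:96916515-96916764, minus strand, with 3 CCAAT boxes: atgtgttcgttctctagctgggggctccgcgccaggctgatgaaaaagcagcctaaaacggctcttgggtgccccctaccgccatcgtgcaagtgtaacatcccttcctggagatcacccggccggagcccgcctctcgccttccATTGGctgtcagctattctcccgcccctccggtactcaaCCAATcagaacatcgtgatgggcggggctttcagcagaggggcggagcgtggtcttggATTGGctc
A match is a description of letters and not a site of binding. The Cdk5rap1 run lies between annotated exon bases of the gene, which take up 143 of the 250 bases of its window, and it does not reach the RefSeq start.

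Cdk5 (ENSMUSG00000028969) lies on the minus strand of chromosome 5 of GRCm38, from 24418241 to 24423530, and encodes the kinase. It had 2365, 3614 and 3284 normalized counts in the control libraries and 3664, 4109 and 2897 in the Bmal1;CKO libraries. The lowest value came from control library 1 and the groups overlapped. The means were 3087 ± 647 in control and 3557 ± 613 in Bmal1;CKO (SD, n = 3 each), and the log2 fold change was 0.21 (standard error, SE, 0.28, 95% interval -0.45 to 0.87). Leaving out control library 1 gave 0.03. Its neighbours on either side, Slc4a2 at 306 bases and Asic3 at 405 bases, had log2 fold changes of 0.22 (SE 0.33) and 0.81 (SE 1.09), and neither shares exons with it. Cryba2, 32201 bases from Cdk5r2, had groups that did not overlap, and it passed the filter on reads only through Bmal1;CKO.

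Cdk5r1 (ENSMUSG00000048895, chromosome 11, plus strand, 80477023 to 80481184) encodes p35, the activator that tethers CDK5 to membranes and that calpain cleaves to the longer-lived p25. It had 1312, 1401 and 985 normalized counts in the control libraries and 775, 505 and 865 in the Bmal1;CKO libraries. Every Bmal1;CKO library lay below every control library, by a narrow margin between control library 3 and Bmal1;CKO library 6. The means were 1232 ± 219 and 715 ± 187 (SD, n = 3 each), and the log2 fold change was -0.80 (SE 0.38, 95% interval -1.69 to 0.08). It ranged from -0.96 to -0.57 with 1 library left out, where groups that do not overlap keep their direction in any case. The adjusted p stayed at or above 0.424 in all 15 alternatives.

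Cdk5r2 (ENSMUSG00000090071, chromosome 1, plus strand, 74854934 to 74857732) encodes p39, the second activator, which is largely neuronal. It had 1640, 852 and 498 normalized counts in the control libraries and 432, 690.1 and 719 in the Bmal1;CKO libraries. Control library 1 was 1.93 times the next highest library, and the other control libraries fell within or close to the range of Bmal1;CKO. The means were 997 ± 585 and 614 ± 158 (SD, n = 3 each), with a fitted log2 fold change of -0.57 (SE 0.53) that was -0.12 without control library 1. Both activators are genes of 1 exon segment, of 4162 bases for Cdk5r1 and 2799 bases for Cdk5r2.

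As p35 and p39 are neuronal proteins, their levels were read beside 12 markers of the inner retinal neurons, among them Rbpms, Pou4f1, Nefl, Snap25 and Map2. The list summed to 39342, 109695 and 102055 normalized counts in the control libraries and to 81510, 65494 and 76366 in the Bmal1;CKO libraries. The fitted change was above 0 for 5 of these markers and below 0 for 7 by limma-trend (2 and 10 by edgeR), with a median of -0.21 on the log2 scale, and without control library 1 it was below 0 for all 12, with a median of -0.56. Slc17a6 had 0 reads in control library 1, which allows up to 3. Control library 1 thus had the lowest neuronal sum but the highest Cdk5r2. Its Cdk5r1 value of 1312 normalized counts also lay above every Bmal1;CKO library (505 to 865). The Bmal1;CKO libraries lay below control libraries 2 and 3 in the neuronal sum, and below every control library in Cdk5r1. The part of neuronal transcripts in the values of the activators was not tested.

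Levels were compared between genes as normalized counts per kilobase of exon. In every library Cdk5rap3 was the highest of the 6 genes and Cdk5 the second. Cdk5 had 1424 ± 298 per kilobase in control and 1640 ± 283 in Bmal1;CKO (SD, n = 3 each), above 82.7% and 84.5% of the genes tested. The activators were lower, with 296 ± 52.7 and 172 ± 45.0 for Cdk5r1 and 356 ± 209 and 219 ± 56.5 for Cdk5r2 (SD, n = 3 each), and their order changed from library to library. The level of Cdk5r1 per kilobase, divided by that of Cdk5 in the same library, was 0.289, 0.202 and 0.1562 in control and 0.110, 0.0641 and 0.1555 in Bmal1;CKO. The lowest control library and the highest Bmal1;CKO library were almost equal. For Cdk5r1 and Cdk5r2 together the quotient was 0.826, 0.385 and 0.274 in control and 0.201, 0.194 and 0.348 in Bmal1;CKO, and the groups overlapped.

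**Figure D2:**
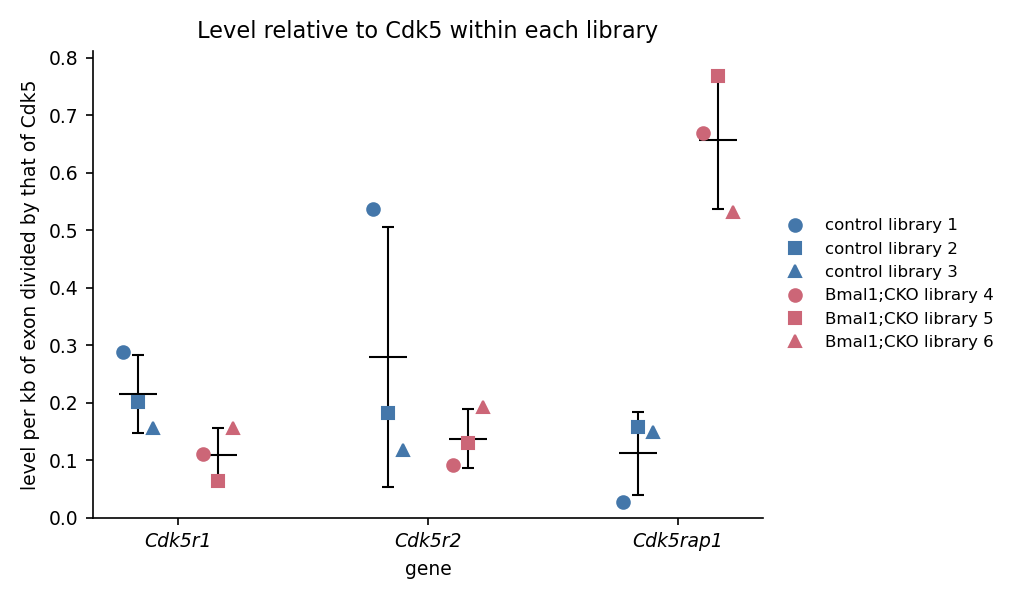
Level per kilobase of exon of Cdk5r1, Cdk5r2 and Cdk5rap1 divided by the level of Cdk5 in the same library (linear axis from 0), for 3 control (blue) and 3 Bmal1;CKO (red) libraries, with the mean (wide bar) and SD. Cdk5rap1 reaches 0.532 to 0.768 of Cdk5 in Bmal1;CKO and 0.0282 to 0.158 in control.

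Cdk5rap1 (ENSMUSG00000027487, chromosome 2, minus strand, 154335380 to 154373010) encodes the enzyme that adds a methylthio group to an isopentenylated adenosine of mitochondrial tRNAs. It had 106, 907 and 778 normalized counts in the control libraries and 3879, 5000.1 and 2443 in the Bmal1;CKO libraries. The groups did not overlap, and the lowest Bmal1;CKO library was 2.69 times the highest control library. The reads behind these values were 86, 977 and 1089 in control and 2758, 5789 and 2965 in Bmal1;CKO, so that counting error is small beside the spread between the libraries. The means were 597 ± 430.1 and 3774 ± 1282 (SD, n = 3 each), a ratio of 6.32 on the linear scale and a fitted log2 fold change of 3.10 (SE 0.81, 95% interval 1.22 to 4.97).

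Control library 1 was the lowest by far and lay 7.35 times below the next library, as happened by a factor over 4 for 14.4% of the genes tested in that library. Without it the log2 fold change was 2.11 (SE 0.37), with 1 library left out it ranged from 2.11 to 3.65, and with a prior on the fold changes DESeq2 gave 1.48. DESeq2 without shrinkage was the 1 alternative of 15 in which Cdk5rap1 passed an FDR of 0.05, with an adjusted p of 0.0394. In the other alternatives the adjusted p ranged from 0.0896 with the prior to 1.00.

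Relative to Cdk5 per kilobase, Cdk5rap1 stood at 0.0282, 0.158 and 0.150 in control and 0.668, 0.768 and 0.532 in Bmal1;CKO. Relative to Cdk5rap3 it stood at 0.0119, 0.141 and 0.106 in control and 0.398, 0.584 and 0.372 in Bmal1;CKO. As the gene was chosen for its difference and Cdk5 and Cdk5rap3 vary little, these quotients are a description. Per kilobase, its mean was above 47.5% of the genes tested in control and above 79.6% in Bmal1;CKO. In every Bmal1;CKO library it ranked 3 of the 6 genes, and in the control libraries it ranked 6, 5 and 4. No other annotated gene overlaps it. The pseudogene Gm14497, the nearest tested gene toward lower coordinates, is 247965 bases away, and it had at most 15.5 normalized counts in a library.

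Within several lists of cell type markers the fitted values lay mostly on 1 side of 0, with 0 markers at FDR < 0.05 by limma-trend. All 14 endothelial markers had fitted values below 0 (median -0.54 on the log2 scale). Without control library 1 it was 12 of 14 (median -0.30), as it was without Bmal1;CKO library 5 (median -0.20). Of the 9 microglial markers 8 were above 0 (median 0.40). It was 6 of 9 without control library 2 (median 0.07) and 9 of 9 without control library 1 (median 0.74). All 5 Müller glia markers tested were above 0 (median 0.37), or 3 of 5 without control library 1. Of the 11 rod markers 10 were below 0 (median -0.21), or 5 of 11 without Bmal1;CKO library 4. Of the 5 pericyte markers 3 were above 0 by limma-trend but 0 by edgeR. The microglial sum was high in control library 1 (4103347) and in Bmal1;CKO library 4 (3985845), which were the lowest and the second highest in Cdk5rap1. The 6 Müller glia markers, of which 5 were tested, summed to 37026 to 44034 in control and 41358 to 53631 in Bmal1;CKO, and Aqp4 had 0 reads in 4 of the 6 libraries. The 5 pericyte markers summed to 2353 to 42594 in control and 3777 to 6834 in Bmal1;CKO. Each of these ranges overlapped between the groups, as did those of the endothelial, rod, microglial and inner neuronal lists. The part of these cell types in the values of Cdk5rap1, Cdk5r1 and the other genes was not tested.

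Cdk5rap2 (ENSMUSG00000039298, chromosome 4, minus strand, 70216856 to 70410443) encodes the centrosomal protein. It had 1341, 680.2 and 921 normalized counts in the control libraries and 162, 1077 and 923 in the Bmal1;CKO libraries. The range of Bmal1;CKO was set by library 4, which lay 4.21 times below the next library, while libraries 5 and 6 sat inside the control range. The means were 981 ± 334 and 721 ± 490.2 (SD, n = 3 each), with a log2 fold change of -0.79 (SE 0.75). Without Bmal1;CKO library 4 it turned to 0.08, so the direction rested on that library. Cdk5rap2 was the lowest or second lowest of the 6 genes per kilobase in every library, at 75.4 ± 25.7 in control and 55.4 ± 37.7 in Bmal1;CKO (SD, n = 3 each). The pseudogene Ywhaq-ps3 shares 2.81% of its exon bases and had 8 to 46 reads.

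Cdk5rap3 (ENSMUSG00000018669, chromosome 11, minus strand, 96907426 to 96916496), the UFM1 ligase adaptor, was the most abundant of the 6 genes. It had 9857, 7160 and 8182 normalized counts in the control libraries and 10816, 9497 and 7280 in the Bmal1;CKO libraries. The means were 8400 ± 1361 and 9197 ± 1787 (SD, n = 3 each), and the groups overlapped. The log2 fold change of 0.12 (SE 0.26) had a 95% interval from -0.47 to 0.72. It had the smallest spread among the control libraries, with a coefficient of variation of 16.2%, against 72.1% for Cdk5rap1 and 58.7% for Cdk5r2. D030028A08Rik, on the opposite strand, shares 5.95% of its exon bases and had 113 to 1706 reads, and reads of the pair cannot be told apart where the exons meet, since the library kit does not mark strand.

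**Figure D3:**
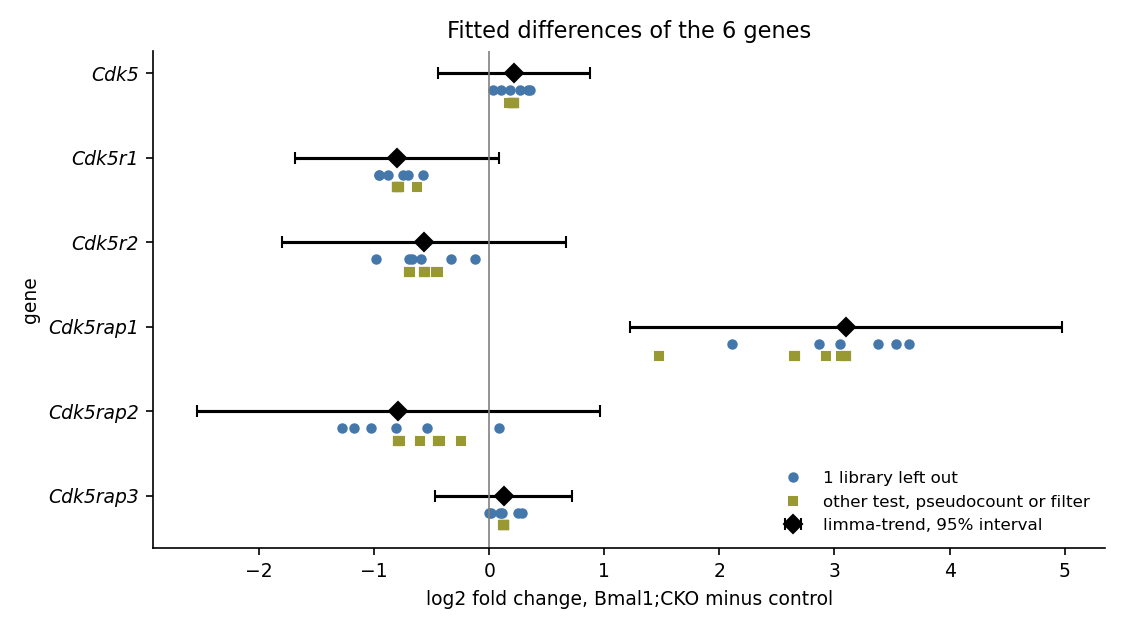
Log2 fold changes (Bmal1;CKO minus control) of the 6 genes by limma-trend with their 95% intervals (black), with 1 library left out (blue) and with another test, pseudocount or filter (olive). The interval of Cdk5rap1 runs from 1.22 to 4.97 and the other 5 include 0.

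The genes whose levels followed each member most closely over the 6 libraries were looked up among 15610 genes with a mean of at least 100 normalized counts, by Pearson's r on log2(normalized count + 1). Cdk5rap1 was followed by Soga3 (r = 0.999) and Tmub2 (r = 0.991), and Cdk5 by Mrpl39 (0.989) and Mcm8 (0.987). The genes nearest to Cdk5r1 were Fkbp1a (0.982) and Tpd52l1 (0.978), and those nearest to Cdk5r2 were Rnf150 (0.995) and Pccb (0.992). Cdk5rap2 was followed by Skp2 (0.996) and Gm19445 (0.995), and Cdk5rap3 by Gm6473 (0.999) and Abhd8 (0.988). Between 22 genes for Cdk5r1 and 87 for Cdk5r2 exceeded an r of 0.95, which are the highest of many values over the same 6 libraries. The range of Soga3, whose lowest value was 3227 (control library 1) and highest 7951 (Bmal1;CKO library 5), was far narrower than that of Cdk5rap1.

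The proteins around CDK5 and the CDK5RAPs were described with 5 lists of 74 genes in all, and all 74 were tested. Of these, 46 had fitted values above 0 and 28 below, with a median log2 fold change of 0.14 beside 0.11 over all genes. Of the 74, Cdk15 passed the filter on reads only through Bmal1;CKO, and the counts in the rest of this paragraph leave it out. At an unadjusted p under 0.05 there were 2 higher and 2 lower of 73 (5.48%, against 4.92% of all genes), and 0 reached FDR < 0.05 by limma-trend. The groups did not overlap in 3 genes that were higher and 5 that were lower (10.96%, against 11.2%).

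Among 12 regulators of CDK5 and its nearest kinase relatives, Cdk15 included, 7 were higher and 5 lower by limma-trend, but 5 higher and 7 lower by edgeR. Leaving out Cdk15, 6 were higher and 5 lower by limma-trend, and 1 of 11 had an unadjusted p under 0.05. Cables1, which encodes a scaffold that links CDK5 to the kinase ABL, had 252, 1066 and 2551 normalized counts in the control libraries and 4264, 4038 and 4134 in the Bmal1;CKO libraries. All Bmal1;CKO libraries were higher and close together, and the control libraries spread widely, with control library 1 again the lowest. Its log2 fold change was 2.23 (SE 0.75, adjusted p = 0.883). Cdk15, of the PFTAIRE kinases, had 0, 0 and 4 reads in control and 11, 10 and 19 in Bmal1;CKO, and it passed the filter on reads only through Bmal1;CKO. The lower genes of smallest p were Ccni, a cyclin able to activate CDK5, with a log2 fold change of -0.51 (SE 0.31), and Cdk14 with -0.69 (SE 0.46). The calpain genes had 0.03 for Capns1, 1.05 for Capn1 and -0.29 for Capn2, and their inhibitor Cast had -0.75, each with overlapping groups.

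Of 18 genes of CDK5 substrates, 14 were higher and 4 lower by limma-trend, 12 and 6 by edgeR, and 9 and 9 without control library 1, and 1 had an unadjusted p under 0.05. Dpysl2, which encodes the collapsin response mediator CRMP2, had 6300, 6420 and 6255 normalized counts in the control libraries and 2999, 3743 and 5159 in the Bmal1;CKO libraries. The control libraries were nearly equal and all lay above the Bmal1;CKO libraries, with a log2 fold change of -0.71 (SE 0.27, adjusted p = 0.883). Ptk2, the focal adhesion kinase, had 2303 ± 641 and 1405 ± 343 (SD, n = 3 each), with a fitted log2 fold change of -0.70 (SE 0.34). Map1b, a microtubule-associated protein, had 42355 ± 2608 and 61085 ± 15498 (SD, n = 3 each), with a fitted log2 fold change of 0.50 (SE 0.28). Its groups did not overlap, but control library 2 (44891) and Bmal1;CKO library 4 (45157) were almost equal. Mef2d, a transcription factor, had a log2 fold change of 0.43 (SE 0.30).

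Around CDK5RAP1, 14 genes of tRNA modification were split into 7 higher and 7 lower (4 and 10 without Bmal1;CKO library 5), with a median log2 fold change of -0.07. Gtpbp3, which encodes a mitochondrial tRNA-modifying GTPase, had 1363, 1499 and 1968 normalized counts in the control libraries and 3276, 2627 and 2771 in the Bmal1;CKO libraries. The groups did not overlap, and the log2 fold change was 0.86 (SE 0.28, unadjusted p = 0.0171 and adjusted p = 0.883 by limma-trend). Trmu, which encodes a mitochondrial tRNA thiouridylase, had 0.41 (SE 0.46) with overlapping groups. The methyltransferase genes Trmt61b and Trmt5 were lower in all Bmal1;CKO libraries than in all control libraries, with log2 fold changes of -0.86 (SE 0.42) and -0.51 (SE 0.29). Trit1, whose product makes the base that CDK5RAP1 acts on, had 0.07, and Cdkal1, which encodes a related methylthiotransferase, had -0.60, both with overlapping groups.

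Around CDK5RAP2, 23 genes of the centrosome and the gamma-tubulin ring complex had a median log2 fold change of 0.19. By limma-trend 16 were higher and 7 lower (13 and 10 without control library 1), beside 56.6% of all genes above 0. Mzt1, a small subunit of the ring complex, had 3423, 4959 and 2409 normalized counts in the control libraries and 1585, 1620.3 and 1529 in the Bmal1;CKO libraries. All control libraries were higher, and the Bmal1;CKO libraries lay within a narrow range. Its log2 fold change was -1.13 (SE 0.33, unadjusted p = 0.00934 and adjusted p = 0.883 by limma-trend). Nedd1, which docks the ring complex, had -0.75 (SE 0.85), and Tubgcp6 and Aspm had 0.86 (SE 0.57) and 0.69 (SE 0.59), all with overlapping groups. Nedd1 was lowest in Bmal1;CKO library 4, at 46.4 normalized counts, as were Cdk5rap2 and 15.2% of all genes tested.

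Around CDK5RAP3, the 7 genes of UFM1 conjugation had a median log2 fold change of -0.12, with 2 higher and 5 lower (4 and 3 without Bmal1;CKO library 6) and 0 at an unadjusted p under 0.05. Ufm1 itself had 3300, 6371 and 3385 normalized counts in the control libraries and 2989, 2887 and 2653 in the Bmal1;CKO libraries, a log2 fold change of -0.55 (SE 0.32). The groups did not overlap, and control library 2 was the highest by a wide margin. Ddrgk1, a partner of CDK5RAP3 in the ligase, had 14264 ± 5485 and 15274 ± 4080 (SD, n = 3 each). The proteases Ufsp1 and Ufsp2 had log2 fold changes of 0.20 (SE 0.35) and -0.12 (SE 0.22), with overlapping groups.

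**Figure D4:**
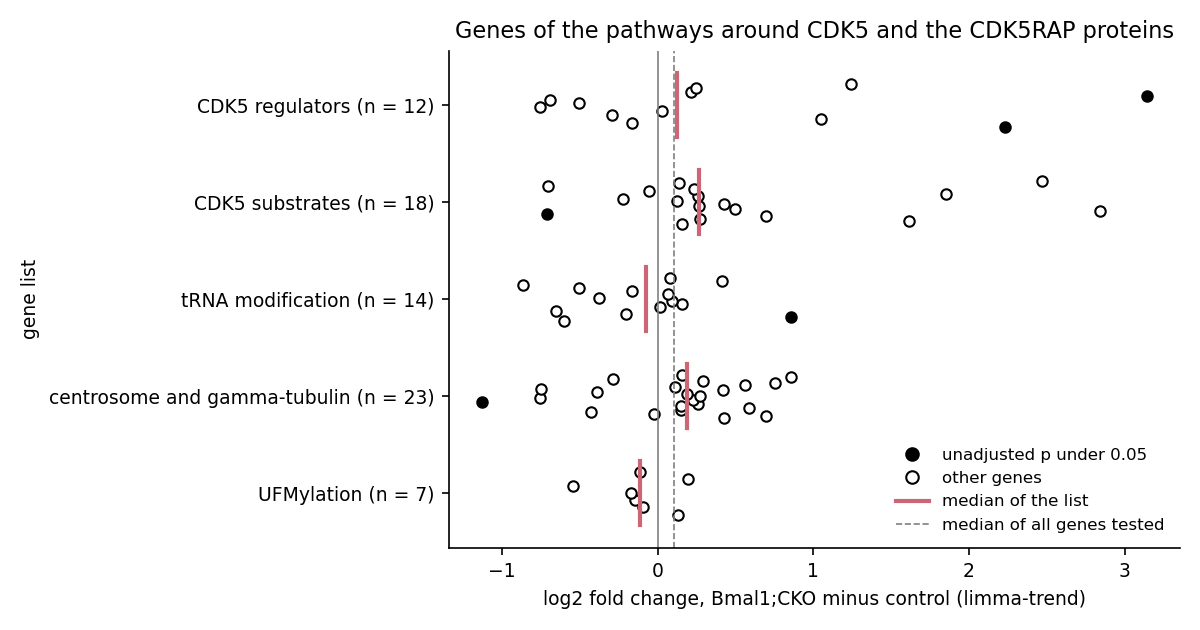
Log2 fold changes (Bmal1;CKO minus control, limma-trend) of the 74 genes in 5 lists around CDK5 and the CDK5RAP proteins, with filled points for an unadjusted p under 0.05 (Cdk15 among them) and a red bar for the median of each list. The medians lie between -0.12 and 0.26, on both sides of 0 and of the median of all genes (dashed, 0.11).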

How the data were processed

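RNA of VECs from P7.5 retinas, sorted by FACS, went through Smart v4 amplification and Nextera XT library preparation. According to the authors' methods, trimming was by Trimmomatic, alignment to mm10 by Bowtie, counting by featureCounts and testing by DESeq2. The deposited signal is the count per gene divided by a size factor per library. Whole reads were recovered for 100% of the values (tolerance 0.02 reads), and 0 columns of samples were left unused. The authors' own fold changes and p-values, also in the table, were not used. Columns were matched to a genotype but not to a single animal.

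Genes reaching 10 reads in 3 or more libraries were tested with limma-trend (limma 3.58.1, R 4.3.3) on log2(normalized count + 1), with Benjamini-Hochberg adjustment. edgeR 4.0.16, DESeq2 1.42.0 and limma-voom on the recovered reads, other pseudocounts and filters, and each library left out were alternatives. Intervals are 95% intervals of the fit, and a count of 0 allows 3 reads, counting error only. The members, lists and markers were chosen with earlier results of these data known. Named are the 6 members, the neighbouring tested genes, the 2 genes most like each member, Bmal1 and, in each list, the 2 genes of smallest p in each direction. Some neighbouring genes are not reported here. Capns1, Capn1, Capn2, Cast, Trit1 and Cdkal1 were named after their values were seen. Positions and exons are from GENCODE M21 (GRCm38), promoters from RefSeq GRCm38.p6. Figures were made with matplotlib 3.10.9.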

Additional observations from a re-analysis of the deposited data

How the results depend on the processing

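Under the 15 alternatives the direction was kept in all 15 for Cdk5, Cdk5r1, Cdk5r2 and Cdk5rap1, and in 14 for Cdk5rap2 and Cdk5rap3. For Cdk5r1 and Cdk5rap1, whose groups did not overlap, leaving out 1 library could not have turned it. With 1 library left out, log2 fold changes ran from 0.03 to 0.35 for Cdk5, -0.96 to -0.57 for Cdk5r1, -0.98 to -0.12 for Cdk5r2, 2.11 to 3.65 for Cdk5rap1, -1.28 to 0.0797 for Cdk5rap2 and -0.0022 to 0.28 for Cdk5rap3, and both reversals (0.0797 and -0.0022) came without Bmal1;CKO library 4. DESeq2 without shrinkage put Cdk5rap1 at 2.66, past the threshold (adjusted p = 0.0394). The genes called at FDR < 0.05, 0 by limma-trend, were 67 by DESeq2 without shrinkage, 34 with the prior, 1 among genes with at least 1 read in total, 1 among those with at least 10 reads in every library, and 0 to 6 with 1 library left out, the 6 without control library 1. The list medians changed sign without control library 1 for the CDK5 regulators (-0.08) and the CDK5 substrates (-0.06), without Bmal1;CKO library 4 for tRNA modification (0.01) and without Bmal1;CKO library 6 for UFM1 conjugation (0.03). The median of the regulators also changed sign in other alternatives and kept it in 9 of 15. The cause was not tested. No paired analysis was possible because the columns carry the numbers 1 to 6, which the groups do not share.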
